A study of Mus musculus with 2 samples.

Results

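The CC chemokine genes Ccl2, Ccl5, Ccl7, Ccl8, Ccl9, Ccl11, Ccl12, Ccl20 and Ccl25 and the fractalkine gene Cx3cl1 were followed in mouse fibro/adipogenic progenitors (FAPs) given recombinant Musclin. These 10 genes were looked up by symbol in an expression table of 30491 genes. Of the 10, 9 have a row, and Ccl12 is not analysed here. FAPs are mesenchymal stromal cells that live between muscle fibres, and Musclin is a muscle-derived peptide that binds the natriuretic peptide clearance receptor. Both libraries came from primary wild-type FAPs of muscle, cultured in serum-containing medium after sorting. One library received 1 µM mouse recombinant Musclin for 24 h, the other an equal amount of vehicle for 24 h, a contrast that addresses the early response of the cells to Musclin. The sources used here do not give the strain, age or sex of the mice, or say whether cultures were pooled. The vehicle values come from a column named BSA, assigned to vehicle because the series holds no further group, so each direction below rests on that assignment.

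With a single library for each treatment, replicate spread is unknown, and no test of the differences was made. Levels are FPKM (fragments scaled to transcript length and library size) summed over the transcripts of a gene, which allows levels of different genes to be compared per length. The deposited values correspond to 6.69 Gb of aligned bases with Musclin and 6.76 Gb with vehicle, or 22456794 and 22677204 fragment equivalents of 298 bases. Ratios of aligned bases are given with a 95% exact Clopper-Pearson interval, which covers counting error only. The labelled cell type was checked against its markers. The FAP markers Pdgfra (87.2 FPKM with Musclin, 79.9 FPKM with vehicle) and Ly6a (284 and 224 FPKM) were abundant, and 10 of 12 FAP markers reached 1 FPKM in a library, although Lum and Pi16 did not.

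Chemokines are small secreted proteins that attract leukocytes along a gradient held on cell-surface sugars, and each acts through G-protein-coupled receptors on the target cell. The CC class has a pair of adjacent cysteines near the start of the mature protein, whereas fractalkine carries 3 residues between them and is made as a membrane-anchored protein with a mucin stalk. In injured muscle, stromal cells and macrophages are known sources of monocyte attractants. Ccl2 and Ccl7 signal through CCR2 on monocytes, Ccl11 (eotaxin) through CCR3 on eosinophils, and mouse Ccl8 through CCR8. Ccl5 and Ccl9 act through CCR1, Ccl20 through CCR6, Ccl25 through CCR9 and fractalkine through CX3CR1.

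The coding stretch around the class-defining cysteine codons is shown for the members whose values are described, because it separates the CC genes from fractalkine. It was read 5′ to 3′ on the coding strand from the GENCODE vM21 sequence of each gene's leading coding transcript (GRCm38), and capitals mark the cysteine codons.
Ccl2, chr11:82036488-82036529, plus strand: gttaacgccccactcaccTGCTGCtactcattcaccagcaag
Ccl7, chr11:82046520-82046561, plus strand: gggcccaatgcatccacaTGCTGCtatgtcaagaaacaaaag
Ccl11, chr11:82058042-82061719 across an intron, plus strand: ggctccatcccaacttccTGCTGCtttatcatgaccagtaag
Ccl8, chr11:82115312-82116079 across an intron, plus strand: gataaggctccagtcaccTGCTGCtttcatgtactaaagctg
Ccl5, chr11:83529224-83529265, minus strand: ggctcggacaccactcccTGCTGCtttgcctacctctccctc
Ccl9, chr11:83575908-83575949, minus strand: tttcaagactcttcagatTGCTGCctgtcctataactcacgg
Ccl20, chr1:83116902-83117836 across an intron, plus strand: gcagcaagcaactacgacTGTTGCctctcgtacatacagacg
Ccl25, chr8:4349891-4353920 across an intron, plus strand: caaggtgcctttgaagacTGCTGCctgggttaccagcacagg
Cx3cl1, chr8:94778033-94778083, plus strand: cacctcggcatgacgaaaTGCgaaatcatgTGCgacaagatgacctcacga
The CC genes place the codons side by side (codons 34 and 35 in Ccl2, 57 and 58 in Ccl9), and Cx3cl1 has them at codons 32 and 36. Despite the shared fold, the genes differ enough in sequence to be read separately. The longest exact run shared by the leading transcripts of any pair of the 10 genes was 23 bases, between Ccl2 and Ccl7, against a read of 149 bases. Their aligned coding sequences matched at 72.4% of positions.

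With Musclin, the monocyte attractant genes Ccl2 and Ccl7, the eosinophil attractant gene Ccl11 and Ccl20 were at least 2-fold higher than with vehicle, and Ccl8, Ccl9, Ccl25 and Cx3cl1 stayed within 2-fold. Summed over the 9 genes, the level was 1250 FPKM under Musclin and 252 FPKM under vehicle, a ratio of 4.95. Counted by the rule of at least 1 FPKM in a library and at least 2-fold on the log2(FPKM + 1) scale, which understates differences of low genes, 4 of the 8 members at that floor were higher and none was lower. Over all 12884 genes at the floor the same rule took 1.71% as higher and 1.52% as lower. The 4 are Ccl2, Ccl7, Ccl11 and Ccl20. Ccl20 reached the floor only in the Musclin library, so the floor itself tilts the count and the median of the members upward. At a floor of 5 FPKM, 3 members were higher. Ccl5 reached the floor of 1 FPKM in neither library. The median log2 ratio of the 8 members was 1.12, beside -0.02 for all genes at the floor, whose 5th and 95th percentiles were -0.59 and 0.62. Without a floor, the median was 0.92 for the 9 members with a row and 0 for all genes. In this bulk RNA, more cells that make a chemokine and more RNA per cell cannot be told apart.

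**Figure D1:**
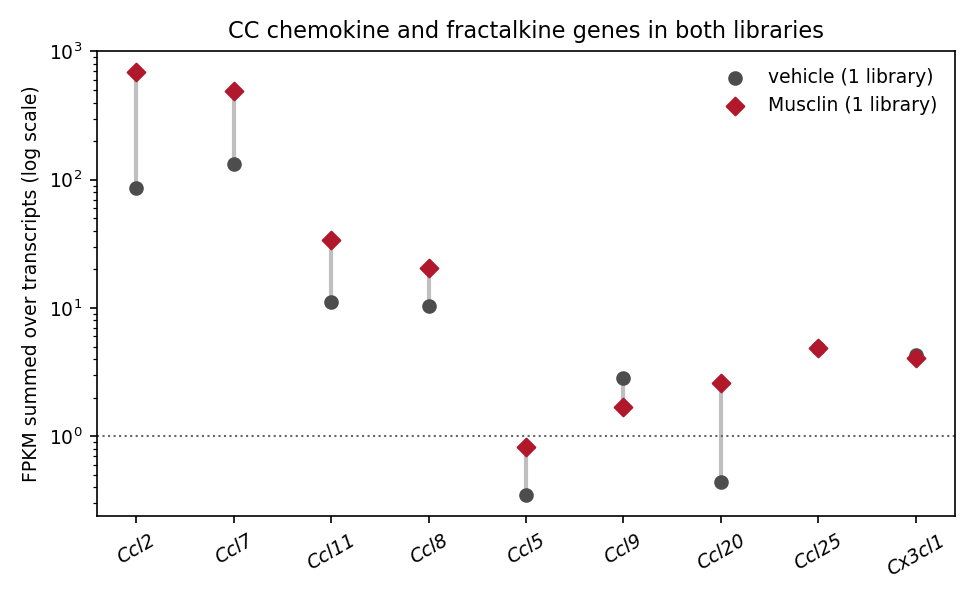
Level of each gene in the vehicle library (grey circles) and the Musclin library (red diamonds), in FPKM on a log axis, with 1 library per group and a dotted line at 1 FPKM. Ccl2 and Ccl7 stand above 80 FPKM in both libraries, while Ccl25 and Cx3cl1 lie almost on top of each other between libraries.

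Ccl2 (ENSMUSG00000035385, chromosome 11, 82035571 to 82037453) encodes the main monocyte attractant of the group. It was at 693 FPKM with Musclin against 85.5 with vehicle. It ranked 50th of all 30491 genes by level with Musclin and 636th with vehicle, and only 7 of the 12884 genes at the floor had a higher log2 ratio. The aligned-base ratio was 8.14 (95% interval 7.73 to 8.57), from 13360 against 1658 fragment equivalents.

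Ccl7 (ENSMUSG00000035373, 82045712 to 82047525), a second CCR2 ligand gene, was at 488 FPKM in the Musclin library against 133 FPKM in the vehicle library. It was the most abundant member with vehicle and the second with Musclin, where its rank among all genes was 70 against 369. Its aligned-base ratio was 3.68 (3.52 to 3.85), so its interval lies wholly under that of Ccl2. The order of both genes therefore turned: Ccl7 was 1.55 times Ccl2 with vehicle (interval 1.46 to 1.65), and Ccl2 was 1.42 times Ccl7 with Musclin (1.38 to 1.46). Together these genes made up 86.4% of the summed FPKM of the members with vehicle and 94.5% with Musclin. The other 7 members summed to 68.5 FPKM under Musclin and 34.3 FPKM under vehicle.

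Ccl11 (ENSMUSG00000020676, 82057823 to 82062955), which encodes the eosinophil attractant eotaxin, was at 33.8 FPKM with Musclin against 11.1 with vehicle. The aligned-base ratio was 3.06 (2.67 to 3.53), from 822 against 271 fragment equivalents. Ccl8 (ENSMUSG00000009185, 82115185 to 82116799) was at 20.6 FPKM in the Musclin library against 10.4 FPKM in the vehicle library, with a ratio of 1.98 (1.58 to 2.48) from 237 against 121 fragment equivalents. Ccl8 thus missed the 2-fold rule, at a log2 ratio of 0.92, while its counting interval lies above 1. Such an interval is common in these libraries, at 26.6% of the genes at the floor. Ccl11 and Ccl8 did not differ in level beyond counting error with vehicle (1.06 times, interval 0.851 to 1.32), and Ccl11 was 1.64 times Ccl8 with Musclin (1.42 to 1.90).

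These 4 genes lie in a single cluster of 81.2 kb on the plus strand of chromosome 11 (GRCm38), in the order Ccl2, Ccl7, Ccl11, Ccl8, with the locus of Ccl12 between Ccl11 and Ccl8. Gaps of 8.26 kb and 10.3 kb separate the first 3 genes, and 52.2 kb lie between Ccl11 and Ccl8. The ratios fell in the order of position, from 8.14 at Ccl2 to 3.68, 3.06 and 1.98. The intervals of Ccl7 and Ccl11 overlap, from 3.52 to 3.53, and the others do not. Ccl1, the next chemokine gene downstream, was listed at 0 in both libraries.

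**Figure D2:**
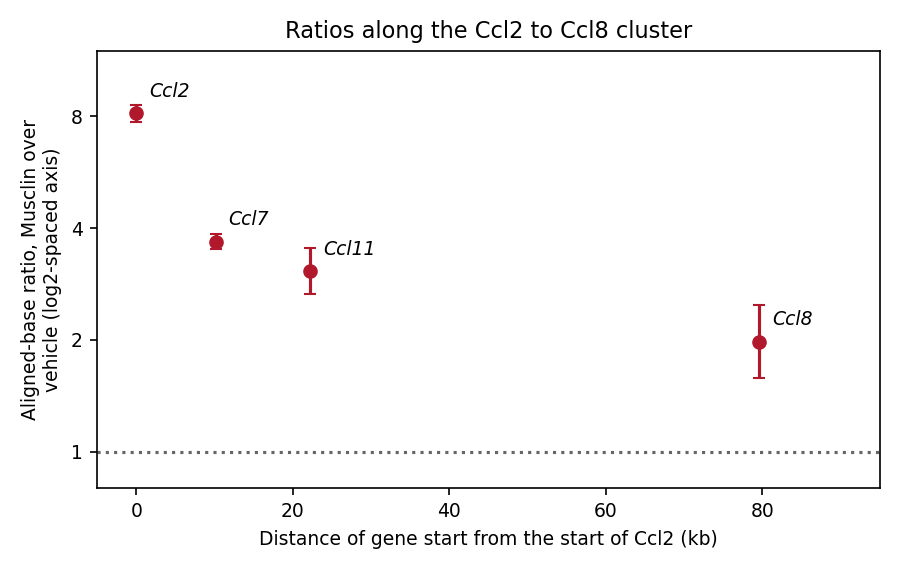
Aligned-base ratio of Musclin over vehicle (log2-spaced axis) against the distance of each gene's start from that of Ccl2, in kb, with 95% counting intervals as bars and 1 library per group. The 4 ratios descend from 8.14 at Ccl2 to 1.98 at Ccl8, which starts 79.6 kb away.

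The spliced and intron-retaining transcripts of Ccl2 were higher by similar ratios, with overlapping intervals. The 3-exon coding transcript ENSMUST00000000193 was at 581 FPKM under Musclin and 72.7 FPKM under vehicle, a ratio of 8.0 (7.56 to 8.47). The transcript ENSMUST00000124479, annotated as retaining an intron, was at 111 and 12.8 FPKM, a ratio of 8.72 (7.76 to 9.82). It made up 16.1% of the gene's FPKM with Musclin and 15.0% with vehicle. GENCODE vM21 places Gm17268 on the opposite strand across Ccl2 (82028224 to 82038562). That gene is not analysed here, and no source used here says whether counting used strand, so reads of both cannot be told apart. The authors' deposited table marks both Ccl2 transcripts, and those of Ccl7 and Ccl11, as significant and higher. These are 4 of the 27 listed member transcripts, from 3 genes, beside 1.69% of all transcripts so marked as higher and 1.72% as lower. Those shares have no floor: 23162 of all 88702 transcripts reached 1 FPKM in a library, as did 11 of the 27. The same deposited table gives Ccl8 a fold of 1.98 and a q-value of 5.36e-05 and does not mark it, and all transcripts it marks have a fold of at least 2.

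Ccl5 and Ccl9 lie in a second cluster, on the minus strand of chromosome 11, and neither passed the rule of size. Ccl5 (ENSMUSG00000035042, 83525778 to 83530518), a T cell and monocyte attractant gene, was at 0.821 FPKM with Musclin against 0.347 with vehicle. This rests on 10 against 4 fragment equivalents, and the interval of its ratio of 2.26 runs from 0.728 to 11, so no difference was detectable at this depth. Ccl9 (ENSMUSG00000019122, 83572919 to 83578636), a CCR1 ligand gene of rodents, was at 1.68 FPKM in the Musclin library against 2.83 FPKM in the vehicle library. Its aligned-base ratio was 1.70-fold lower (1.33 to 2.17), from 109 against 187 fragment equivalents, and 31% of all genes at the floor had an interval wholly under 1. Its log2 ratio of -0.52 lies inside the 5th to 95th percentile of all genes. The neighbouring gene Ccl6, another CCR1 ligand gene, was at 1.49 FPKM under Musclin and 0.548 FPKM under vehicle, a ratio of 2.66 (1.5 to 4.82), so these 2 neighbours lay on opposite sides of 1. Ccl6 reached the floor only with Musclin, from 47 against 18 fragment equivalents. E230016K23Rik (83582056 to 83623693) runs across Ccl6 on the opposite strand, at 0.411 FPKM with Musclin and 0.735 with vehicle, so reads where they overlap cannot be assigned by strand. In the authors' deposited table the main Ccl9 transcript has a q-value of 0.00365 and is not marked.

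Ccl20 (ENSMUSG00000026166, chromosome 1, 83116766 to 83119167), which encodes the CCR6 ligand known for drawing dendritic cells and Th17 cells, was at 2.61 FPKM with Musclin against 0.439 with vehicle. The aligned-base ratio was 5.97, and its wide interval (2.78 to 14.5) comes from 47 against 8 fragment equivalents. Its log2 ratio of 1.33 at a pseudocount of 1 became 0.48 at a pseudocount of 5, which is under 2-fold. All 3 listed transcripts are coding. ENSMUST00000113437 was at 2.14 and 0.182 FPKM and held 82.1% of the gene's FPKM with Musclin and 41.4% with vehicle, from 38 against 3 fragment equivalents. ENSMUST00000186832 was at 0.417 and 0.244 FPKM, from 7 against 4. The authors' deposited table gives a p-value of 1 for all 3 transcripts, including a fold of 11.8 for ENSMUST00000113437. Low transcripts of other members have the same value whatever their fold, so it may stand for a transcript that was not tested.

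Ccl25 and Cx3cl1, both on chromosome 8 but far apart, were the members nearest to 1. Ccl25 (ENSMUSG00000023235, 4325210 to 4360020), known as the thymus and gut chemokine, was at 4.90 FPKM in the Musclin library against 4.89 FPKM in the vehicle library, with an aligned-base ratio of 0.973 (0.775 to 1.23). Its level was spread over 10 listed transcripts, of which 3 reached 1 FPKM. The coding transcripts ENSMUST00000024004 (1.68 and 1.35 FPKM) and ENSMUST00000127460 (1.37 and 1.44 FPKM) led, followed by the intron-retaining ENSMUST00000207925 (0.799 and 1.02 FPKM). Coding transcripts made up 65.5% of the gene's FPKM with Musclin and 58.7% with vehicle. Elavl1 runs on the opposite strand and overlaps the first bases of Ccl25 (4285382 to 4325413), and it was at 13.8 FPKM under Musclin and 14.5 FPKM under vehicle, so part of the low Ccl25 signal at that end cannot be assigned by strand.

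Cx3cl1 (ENSMUSG00000031778, chromosome 8, 94772009 to 94782427), the membrane-anchored fractalkine gene, was at 4.07 FPKM with Musclin against 4.34 with vehicle. Its ratio of 0.938 (0.799 to 1.10) rests on 300 against 323 fragment equivalents, so a fall beyond the lower bound or a rise beyond the upper bound lies outside counting error. The coding transcript ENSMUST00000034230 held 98.9% of the FPKM with Musclin and 98.8% with vehicle. Cx3cl1 and Ccl25 did not differ in level beyond counting error in either library (1.20 times with Musclin, interval 0.985 to 1.47, and 1.13 times with vehicle, 0.921 to 1.36). Ccl2 was 19.7 times Cx3cl1 with vehicle and 170 times with Musclin.

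**Figure D3:**
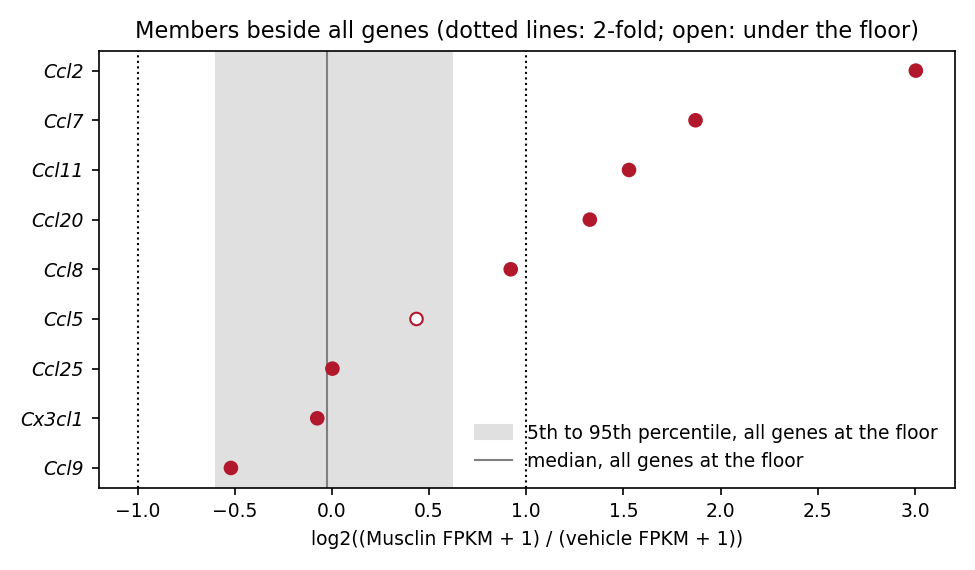
log2((Musclin FPKM + 1)/(vehicle FPKM + 1)) of each member, with the 5th to 95th percentile of all 12884 genes at the floor in grey, the median as a line and 2-fold as dotted lines. Ccl2, Ccl7, Ccl11 and Ccl20 lie beyond 2-fold, Ccl8 at 0.92 lies just inside it, and Ccl9 is the lowest at -0.52.

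The order of levels changed in few places between libraries. With vehicle it ran Ccl7, Ccl2, Ccl11, Ccl8, Ccl25, Cx3cl1, Ccl9, Ccl20 and Ccl5. With Musclin Ccl2 passed Ccl7 and Ccl20 passed Ccl9. With vehicle, the interval of the level ratio held 1 for the neighbours Ccl11 and Ccl8, Ccl25 and Cx3cl1, and Ccl20 and Ccl5. With Musclin it did so for Ccl25 and Cx3cl1 alone. For Ccl20 and Ccl5 with vehicle it ran from 0.377 to 6.38, from 8 and 4 fragment equivalents, so a large difference could go unseen. Ccl20 was 1.56 times Ccl9 with Musclin (1.08 to 2.21), and Ccl9 was 6.46 times Ccl20 with vehicle (3.19 to 15.1).

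Both Ccl2 transcripts were higher by similar folds. By FPKM, most of the Ccl20 difference sat in ENSMUST00000113437, at a ratio of 11.8 (4.06 to 64.8) from 38 against 3 fragment equivalents. That interval overlaps the one of ENSMUST00000186832 (0.449 to 8.23, from 7 against 4), so a changed split is not shown beyond counting error. The 3 leading Ccl25 transcripts, at 1.25 (0.773 to 2.08), 0.951 (0.552 to 1.71) and 0.787 (0.524 to 1.18), had intervals that hold 1 but are wide.

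**Figure D4:**
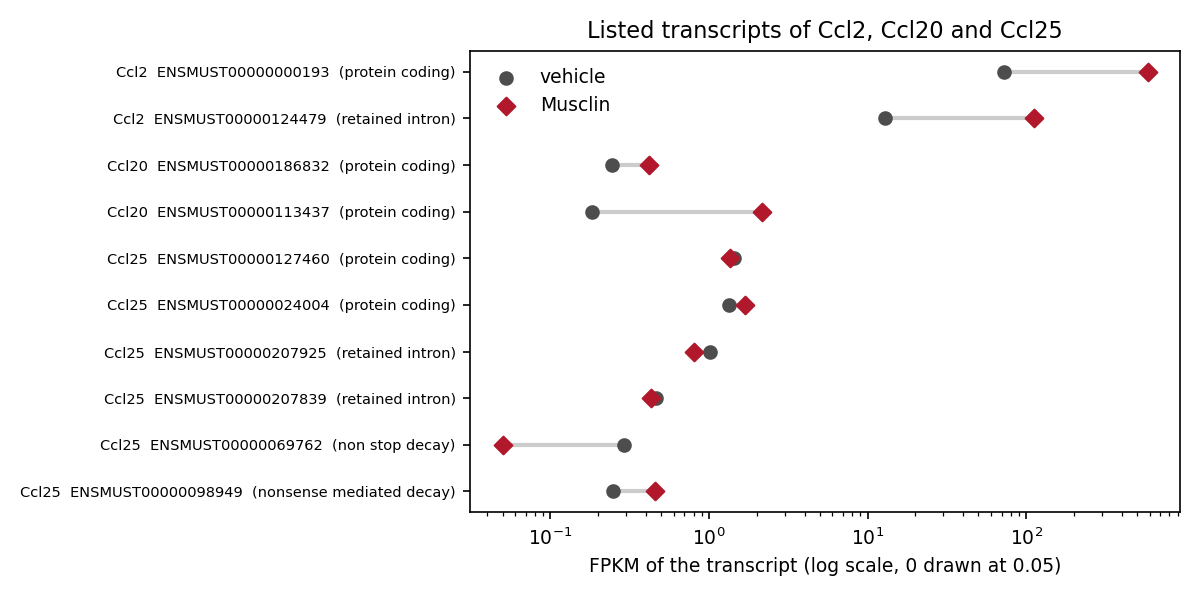
FPKM of the listed transcripts of Ccl2, Ccl20 and Ccl25 with at least 0.2 FPKM in a library, on a log axis, with vehicle as grey circles, Musclin as red diamonds and a value of 0 drawn at 0.05. The coding and the intron-retaining Ccl2 transcript shift by similar distances, from 72.7 to 581 FPKM and from 12.8 to 111 FPKM.

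RefSeq promoter windows (GRCm38.p6) were at hand for 6 of the 10 genes, and those of Ccl20, Ccl8 and Ccl9 are shown as the ones whose genes have a counting interval that leaves out 1. Each covers the 250 bases before the annotated start, 5′ to 3′ on the gene's strand, with motif matches in capitals.
Ccl20, chr1:83116516-83116765, plus strand: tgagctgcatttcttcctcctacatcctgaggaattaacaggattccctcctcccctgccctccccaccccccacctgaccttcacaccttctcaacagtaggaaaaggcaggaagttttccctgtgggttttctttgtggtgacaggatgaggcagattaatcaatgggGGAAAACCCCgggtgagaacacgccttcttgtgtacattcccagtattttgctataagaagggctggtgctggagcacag
Ccl8, chr11:82114935-82115184, plus strand: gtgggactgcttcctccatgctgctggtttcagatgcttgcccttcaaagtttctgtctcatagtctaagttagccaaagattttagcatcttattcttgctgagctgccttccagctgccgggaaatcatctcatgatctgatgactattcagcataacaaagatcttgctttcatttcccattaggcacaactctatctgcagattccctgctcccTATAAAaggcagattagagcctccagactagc
Ccl9, chr11:83578637-83578886, minus strand: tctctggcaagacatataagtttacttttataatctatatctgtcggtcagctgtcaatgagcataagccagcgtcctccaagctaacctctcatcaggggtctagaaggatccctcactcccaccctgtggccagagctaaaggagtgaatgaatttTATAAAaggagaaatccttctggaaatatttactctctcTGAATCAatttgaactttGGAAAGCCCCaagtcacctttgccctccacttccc
Searched on both strands were the NF-κB consensus, the AP-1 word TGANTCA and the interferon-response word, which is GAAA, any 2 bases and GAAA again, and on the gene's strand the TATA word TATAAA. The NF-κB consensus, on the opposite strand in each case, begins 80 bases before the start of Ccl20 and 35 bases before that of Ccl9, and 7.25% of all 32851 windows hold it. Ccl9 also holds the AP-1 word, as 6.75% of windows do, and the TATA word, which Ccl8 has 32 bases before its start and 7.59% of windows hold. The interferon-response word, in 2.98% of windows, was in none of the 7 windows of the 6 genes. No 2 of the matched words overlap. The windows of Ccl8, Ccl12, Ccl25 and Cx3cl1 do not hold the NF-κB word. Windows of Ccl2, Ccl5, Ccl7 and Ccl11 were not at hand, and the part of any of these words in the ratios was not tested.

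The receptors of these ligands were low in the same libraries. Of 15 receptor genes, 14 stayed under 1 FPKM in both libraries, and Ccr2, the receptor of Ccl2 and Ccl7, was listed at 0 in both. Ccr1, the receptor shared by Ccl5 and Ccl9, was the exception at 2.10 FPKM in the Musclin library against 1.13 FPKM in the vehicle library, a ratio of 1.86 (1.38 to 2.50). The Ccl8 receptor gene Ccr8 was at 0.0813 FPKM under Musclin and 0.846 FPKM under vehicle. The eotaxin receptor gene Ccr3 was at 0.0136 and 0.0201 FPKM, Ccr6 at 0 and 0.0251 FPKM, Ccr9 at 0.0299 and 0.0572 FPKM, and Cx3cr1 at 0.0222 and 0.117 FPKM. The scavenging receptor gene Ackr4, which takes up Ccl25, was at 0.758 and 0.491 FPKM. Of 15 other CC and C chemokine ligand genes, 8 have a row, 2 reached 1 FPKM and neither passed 2-fold on the log2(FPKM + 1) scale. They are Ccl6 and the skin chemokine gene Ccl27a, at 1.55 and 1.5 FPKM.

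Markers of other cells were read in the same libraries. Of 19 macrophage and other leukocyte markers, 18 have a row and 4 reached 1 FPKM. None of the 4 passed 2-fold on the log2(FPKM + 1) scale, which understates differences of low genes. Ptprc, the pan-leukocyte marker CD45, was at 0.383 FPKM with Musclin against 0.644 with vehicle, the macrophage marker Adgre1 at 0.133 and 0.120 FPKM, and Fcgr1 was listed at 0 in both. The monocyte genes Cd14 (6.87 and 2.95 FPKM) and Csf1r (1.61 and 0.532 FPKM) were higher with Musclin. Their aligned-base ratios were 2.31 (1.84 to 2.93) and 3.09 (2.29 to 4.31), both past 2. Lyz2 was lower (8.46 and 14.1 FPKM), at a ratio of 0.598 (0.510 to 0.701). The summed level of the 18 genes was 21.4 FPKM in the Musclin library against 22.8 FPKM in the vehicle library, and without Lyz2 it was 12.9 and 8.61 FPKM. Cx3cr1 stands in both the receptor and the leukocyte list. The part of such cells in the chemokine ratios was not tested. Of 8 endothelial markers Tek (1.58 and 3.45 FPKM) and Cdh5 (0.891 and 1.15 FPKM) reached 1 FPKM, with a summed level of the list of 3.43 and 6.11 FPKM, and Cldn5 was listed at 0 in both. Of 8 myogenic markers 6 have a row and 3 reached 1 FPKM. The only one past 2-fold on the log2(FPKM + 1) scale was Vcam1 (33.7 and 14.4 FPKM), which FAPs also express. Des (0.457 and 1.21 FPKM) was 2.16-fold lower by aligned bases (1.32 to 3.76) but inside 2-fold on that scale. Of 7 pericyte and smooth muscle markers none of the 4 at the floor passed 2-fold, and Acta2 (586 and 672 FPKM) and Cspg4 (14.0 and 21.5 FPKM) led. Of the 10 FAP markers at the floor, Dcn passed 2-fold on that scale as higher (181 and 64.8 FPKM) and Osr1 as lower (15.1 and 34.8 FPKM). By aligned bases Osr1 was only 1.60-fold lower (1.45 to 1.77). Cd34 (29.7 and 14.5 FPKM) and Dpt (3.37 and 7.03 FPKM) missed 2-fold on that scale, while by FPKM alone they were 2.05-fold higher and 2.09-fold lower.

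**Figure D5:**
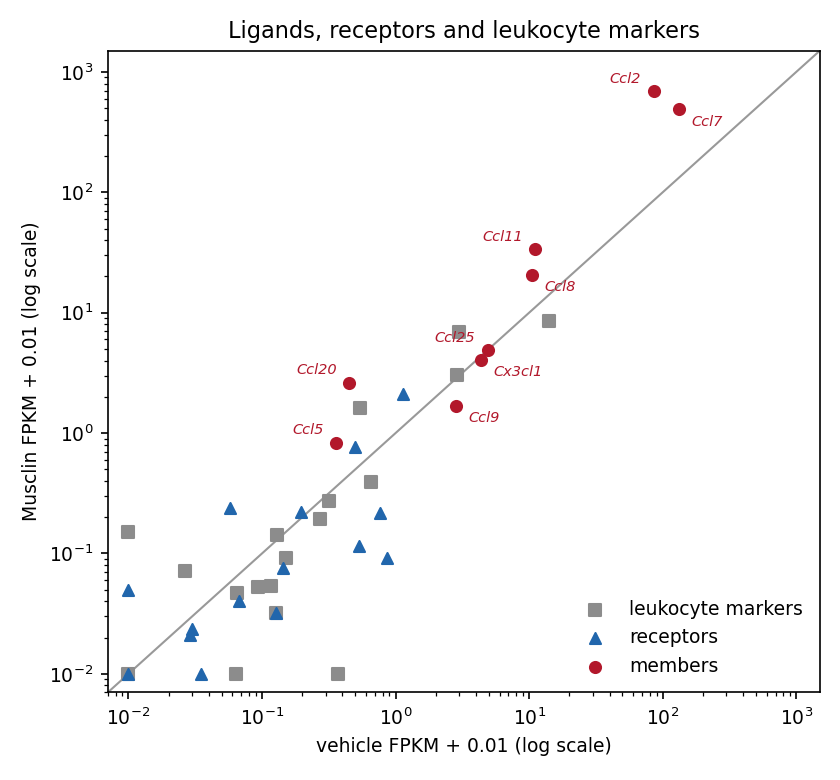
FPKM with Musclin against FPKM with vehicle, both plus 0.01 on log axes, for the members (red circles), 15 receptor genes (blue triangles) and 18 leukocyte markers (grey squares), with a line of equal level. Ccl2 and Ccl7 stand far above the line at the top right, and 14 of the 15 receptors lie under 1 FPKM in both libraries.

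Genes of the signalling that is known to drive CC chemokine transcription were in part higher. Of 21 genes of the NF-κB pathway and its feedback, 20 reached the floor. On the log2(FPKM + 1) scale 3 were 2-fold or more higher and none was lower, with a median log2 ratio of 0.43. The 3 are Nfkbia, which encodes the inhibitor IκBα (31.7 FPKM with Musclin, 8.23 FPKM with vehicle), Tnfaip3, which encodes the feedback enzyme A20 (4.81 and 1.14 FPKM), and the kinase gene Ikbke (13.4 and 5.55 FPKM). The subunit gene Rela was at 29.1 and 26.1 FPKM. Among interferon signalling genes, the transcription factor genes Irf7 (19.6 and 2.58 FPKM) and Stat2 (25.3 and 9.50 FPKM) were 2-fold or more higher. The part of either pathway in the chemokine ratios was not tested.

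Among genes that act on chemokines after transcription, a few single genes passed 2-fold on the log2(FPKM + 1) scale. Of 9 genes for mRNA decay factors, 1 was higher, Zc3h12a, which encodes the ribonuclease Regnase-1 (32.0 FPKM under Musclin and 6.20 FPKM under vehicle), and the median log2 ratio was 0.02. Of 12 genes for proteases known to cut chemokines, 9 reached the floor, 3 were higher and none lower, and their median log2 ratio was 0.18. They were Mmp3 (165 and 14.2 FPKM), Mmp13 (15.3 and 1.14 FPKM) and Mmp8 (1.29 and 0.135 FPKM), which reached the floor only with Musclin. Adam10 and Adam17, whose products shed fractalkine from the cell surface, were at 33.2 and 29.1 FPKM and at 20.4 and 22.9 FPKM. Of 20 genes for heparan sulfate synthesis and carriers, which hold chemokines at the cell surface, 19 reached the floor. On the log2(FPKM + 1) scale none was 2-fold higher, 1 was 2-fold lower and the median log2 ratio was 0.19. That gene is Glce, an epimerase of heparan sulfate (13.1 and 37.4 FPKM), and the carrier genes Sdc4 (54.9 and 31.9 FPKM) and Sdc2 (34.0 and 56.3 FPKM) lay on opposite sides of 1. Hs3st1 (1.75 and 0.791 FPKM) was past 2-fold by aligned bases, at 2.13 (1.38 to 3.44), but not on that scale.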

How the data were processed

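RNA of FAPs was measured per transcript in 2 libraries, 1 with Musclin and 1 with vehicle. The authors deposited FPKM values, a fold (ratio) of both, its log2 and p-values and q-values per transcript, per the file headers. StringTie, DESeq2 and edgeR are named per the submitters' processing notes, without roles or versions. For aligner, build and test: not given in the sources used here. All 27 member transcripts have the positions of GENCODE vM21 (GRCm38).

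FPKM was summed per gene. Depth was read from the steps of FPKM times length in single-exon genes with 1 transcript, where 69.3% (Musclin) and 67.6% (vehicle) of values were whole bases within 0.1, and the commonest totals were 149 and 298 bases. Log2 ratios use a pseudocount of 1 FPKM. The rule of size was 2-fold at a floor of 1 FPKM. It was checked on simulated counts, which cannot supply the unknown replicate spread of these libraries. Python 3.11.15, pandas 2.3.3 and scipy 1.17.1 were used. All members are named, and of each gene list up to 6 genes past 2-fold, or the 2 highest where none was. Other list genes named with values were chosen for their role or after their values were seen. Members and lists were chosen with earlier results of these data known. Some genes under this rule, and the count of the interferon list, are not reported here.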

Additional observations from a re-analysis of the deposited data

How the results depend on the processing

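The count of higher members was 4 under 7 of 9 alternatives and 3 at a pseudocount of 5 and at a floor of 5 FPKM (without Ccl20), and none was 2-fold lower under any. The counts over all genes, 220 higher and 196 lower, were 400 and 360 at a pseudocount of 0.1, 97 and 71 at a pseudocount of 5, 402 and 378 with each library rescaled to the same FPKM total, 369 and 358 with the leading transcript alone, and 414 and 384 with the aligned-base ratio. The cause was not tested. No log2 ratio of a member past 2-fold turned. Across settings Ccl2 ran from 2.95 to 3.02, Ccl7 from 1.84 to 1.88, Ccl11 from 1.27 to 1.61 and Ccl8 from 0.73 to 0.98. The low genes moved most, Ccl20 from 0.48 to 2.58, Ccl5 from 0.12 to 1.17 and Ccl9 from -0.77 to -0.23. No replicate could be left out with 1 library per group. No paired analysis was possible because each group has a single library.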

Other observations

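Genes outside the members, chosen after their values were seen, stand beside both clusters on chromosome 11. Upstream of Ccl2, the long noncoding RNA genes Gm31522 (81983119 to 82019967) and Gm11419 (81985406 to 81988769) were at 2.09 FPKM with Musclin against 0 listed with vehicle, and at 1.60 against 0.270 FPKM. They rest on 36 against 0 and 25 against 4 fragment equivalents. Near Ccl5, Taf15, which encodes an RNA-binding protein, was at 25.3 FPKM with Musclin against 57.2 with vehicle, which is 2.27-fold lower by aligned bases (2.11 to 2.43).

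The CXC chemokine genes form the other large class. Of 12 with a row, 9 reached the floor, 7 passed 2-fold upward and 1 downward. Over all 12884 genes at the floor, 1.71% passed upward and 1.52% downward. Of the 7, Cxcl2, Cxcl3, Cxcl9 and Cxcl10 reached the floor only in the Musclin library, and the rest, Cxcl16 among them, in both. The floor itself thus tilts this count upward, and it is not compared with the members. Cxcl16, which like Cx3cl1 encodes a membrane-anchored chemokine, was at 5.88 FPKM in the Musclin library against 2.06 FPKM in the vehicle library, a ratio of 2.91 (2.37 to 3.62). The lower gene was Cxcl12, the stromal ligand of CXCR4, at 60.1 FPKM under Musclin and 122 FPKM under vehicle.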
